A study of Homo sapiens with 2 samples.

Results

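Expression of the cytosolic ribosomal protein genes was examined in the human glioblastoma cell line U87, which had been treated for 72 h with the curcumin analog CCA-1.1 or with DMSO, its co-solvent. Members were the protein-coding genes whose symbol is RPL or RPS followed by a number, together with RPSA, RPLP0, RPLP1 and RPLP2. The RPS6K kinases, RPS19BP1 and pseudogenes were left out. This gave 90 of the 19934 protein-coding genes listed in the deposited table. They were 43 genes of the large subunit, 31 of the small subunit, 3 of the stalk, 8 paralogs, 3 read-through genes and 2 Y-linked genes, which were counted only. The 77 genes of both subunits and the stalk are called core genes here, and all of them passed the minimum mean of 1 TPM, as did 86 of the 90 members.

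Both libraries came from wild-type U87 cells grown in RPMI with fetal bovine serum, and they differed by label only in the treatment. There was 1 library per condition. The dose of CCA-1.1 used for sequencing is not given in the sources used here. Values are in TPM, a unit that divides by transcript length and gives every library the same total, so the read depth is unknown and a difference in one set of genes moves the values of the others. No difference below has a replicate check and no test was possible; counts and medians describe these 2 libraries. In a bulk sample, fewer cells that express a gene and less of its RNA per cell cannot be told apart. Of the glioma markers, VIM was at 3217 TPM with DMSO and 3106 TPM with CCA-1.1, and CD44 was at 607 and 473. S100B was listed at 0 in both libraries, AQP4 at 0 and 0.02, and GFAP at 0.41 and 0.57, so these astrocytic markers were nearly absent. The other glioma and astrocyte markers were low, with SOX2 at 1.87 and 1.45, ALDH1L1 at 3.42 and 6.05, OLIG2 at 5.64 and 7.03 and NES at 7.53 and 7.62 TPM. Of the immune markers, CD68 was at 494 and 397 TPM and PTPRC at 0.09 and 0.07. The epithelial markers EPCAM and CDH1 were under 0.2 TPM in both libraries.

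The ribosome translates mRNA into protein. Its small subunit binds the mRNA and reads the codons, its large subunit joins the amino acids, and the acidic stalk of the large subunit recruits the GTPases that drive each step. The proteins of both subunits are needed in equal numbers, with more copies of the stalk proteins RPLP1 and RPLP2. Their mRNAs are among the most abundant in a growing cell. Most of them begin with a C followed by an unbroken run of pyrimidines, the 5′ terminal oligopyrimidine (TOP) motif, through which mTOR and the RNA-binding protein LARP1 control their translation and stability.

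The starts of several core genes show this feature, and they are printed because they belong to the genes with the highest levels and the largest and smallest differences below. Each is 30 bases on the strand of the gene, 10 bases before and 20 bases from the annotated start (RefSeq, GRCh38.p14), with the pyrimidine run in capitals where it has at least 8 bases.
RPS27, chr1:153990752-153990781, plus strand: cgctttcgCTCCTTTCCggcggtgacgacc
RPL41, chr12:56116623-56116652, plus strand: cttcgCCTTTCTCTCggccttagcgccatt
RPL26, chr17:8383174-8383203, minus strand: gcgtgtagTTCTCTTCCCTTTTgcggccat
RPS23, chr5:82278335-82278364, minus strand: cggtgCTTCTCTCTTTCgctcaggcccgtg
RPS13, chr11:17077648-17077677, minus strand: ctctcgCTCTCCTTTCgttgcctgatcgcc
RPS24, chr10:78033853-78033882, plus strand: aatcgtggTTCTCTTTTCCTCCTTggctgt
RPS19, chr19:41860245-41860274, plus strand: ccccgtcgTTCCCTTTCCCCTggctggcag
RPLP1, chr15:69452808-69452837, plus strand: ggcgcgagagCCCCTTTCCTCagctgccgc
RPL12, chr9:127451387-127451416, minus strand: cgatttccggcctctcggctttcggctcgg
RPS29, chr14:49598691-49598720, minus strand: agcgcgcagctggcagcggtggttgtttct

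A run of at least 8 pyrimidines touching the 10 bases on either side of the start, searched on the strand of the gene, was found in 51 of the 62 core genes that had a promoter in the RefSeq table (82.3%). It was found in 15.01% of the 15792 protein-coding promoters. The longest run in this window had a median of 11 bases in the core genes and 4 bases over all promoters, and the longest run of a core gene, 25 bases, was in RPL7A. RPL12 and RPS29 were among the 11 core genes without such a run, with longest runs of 6 and 2 bases. The absence of the letters in this window says nothing of the start used in these cells.

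Every core gene had a higher level in the CCA-1.1 library than in the DMSO library. Together they held 90817 TPM with DMSO and 112047 TPM with CCA-1.1, a ratio of 1.23. This was 9.08% of all TPM with DMSO and 11.2% with CCA-1.1. The gain of 21230 TPM was spread over the class, since the 5 genes that gained the most TPM made up 31.1% of it. The summed TPM of all other protein-coding genes was 816065 and 795626, a ratio of 0.975.

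The level of a core gene in the middle of the order was 921 TPM with DMSO and 1166 TPM with CCA-1.1. The quartiles were at 436 and 1479 TPM with DMSO and at 489 and 1826 TPM with CCA-1.1. More than 1000 TPM was reached by 36 core genes with DMSO and by 43 with CCA-1.1. The order of the genes was nearly the same, with a Spearman correlation of 0.994 between the libraries over the 77 genes, which share both libraries and are not independent.

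The difference of a gene is the log2 of its TPM + 1 with CCA-1.1 over its TPM + 1 with DMSO, a scale that understates the change of low values. It stands in brackets after a pair of TPM values, of which the first is DMSO. All 77 core genes were above 0, against 53.8% of the 12038 protein-coding genes that averaged at least 1 TPM. Of the core genes, 76 were above 0.1, against 32% of these genes, and 50 were above 0.25, against 11.8%. No core gene was past 2-fold, that is above 1 or below -1, a difference reached upward by 0.15% and downward by 0.191% of protein-coding genes. The difference was therefore small in each gene and shared by all of them.

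The median difference of the core genes was 0.31, with a range of 0.07 to 0.66 and an interquartile range of 0.20 to 0.36. The median over all protein-coding genes was 0.02. Abundant genes had lower values as a set, which has a minimum of 100 TPM and was not matched to the core levels. Of 1499 protein-coding genes that averaged at least 100 TPM, 42.2% were above 0, 21.7% above 0.1 and 8.41% above 0.25, and these shares include the core genes themselves. The 1422 of them that are not members had a median of -0.04 and 5th and 95th percentiles of -0.31 and 0.26. The SD of the difference was 0.12 over the core genes and 0.21 over these other abundant genes.

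RPS27, a zinc-finger protein of the small subunit, had the highest level of all members. Its TPM was 9752 with DMSO and 13214 with CCA-1.1, a difference of 0.44. Its part of the summed core TPM was 10.7% and 11.8%, and it made up 16.3% of the gain. Without RPS27, the small subunit had sums of 30531 and 37431 TPM, a ratio of 1.23, against 1.26 with it.

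RPL41, the shortest ribosomal protein, was at 4032 TPM with DMSO and 4693 TPM with CCA-1.1, a difference of 0.22. RPL8, a protein of the large subunit close to the peptidyl transferase centre, was at 3244 and 3693 TPM, a difference of 0.19. RPL26, which lies near the exit of the peptide tunnel, was at 2878 and 3973 TPM, a difference of 0.46. These were the next highest levels, and RPL26 differed more than the core median while RPL41 and RPL8 differed less.

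The stalk is built from RPLP0, which anchors it to the large subunit, and from RPLP1 and RPLP2, which form the dimers on it. RPLP0 was at 2460.2 TPM with DMSO and 3041 TPM with CCA-1.1, a difference of 0.31. RPLP2 was at 2420.4 and 2736 TPM, a difference of 0.18. RPLP1 was at 1040.2 and 1135 TPM, a difference of 0.13 and one of the 5 smallest. The anchor was thus at the core median, and the proteins of the dimers were below it, with a summed stalk level of 5921 and 6913 TPM (16.8% higher).

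The lowest core levels were those of RPL14, at 65.9 TPM with DMSO and 74.6 TPM with CCA-1.1 (0.18). RPS23 was at 107 and 169.5 TPM (0.66), and RPL22, an RNA-binding protein of the large subunit, was at 131 and 164 TPM (0.33). RPL27A was at 163 and 182 TPM (0.15), and RPS26, which contacts the mRNA at the exit channel, was at 149 and 199.6 TPM (0.42). Low levels went with long reference transcripts, with a Spearman correlation of -0.69 between mean TPM and length over the 77 genes. The 17 core genes whose MANE Select transcript (the 1 agreed reference transcript per gene) is over 2000 bases had a median of 324 TPM, against 1252 TPM for the others. That of RPL14 has 7136 bases and that of RPS23 has 3252. Since TPM divides by length, a long listed transcript may lower the level given to a gene, which was not tested.

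The largest difference was in RPS23, a protein of the decoding centre, which was at 107 TPM with DMSO and 169.5 TPM with CCA-1.1, or 0.66 on the log2 scale. RPL12, part of the base of the stalk, followed with 708 and 1028 TPM (0.54). RPS13 was at 1474 and 2106 TPM (0.51), RPS24 at 976 and 1367 TPM (0.49) and RPL36A at 259 and 359 TPM (0.47). These genes came from both subunits. Of the 4 with a printed start, RPS23, RPS13 and RPS24 had a pyrimidine run and RPL12 did not.

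The smallest differences were in RPS19, a small-subunit protein needed for processing of the 18S rRNA precursor and mutated in Diamond-Blackfan anaemia, at 352 and 369.9 TPM (0.07), and in RPS15, at 1246 and 1342 TPM (0.11). RPL36 was at 633 and 687 TPM (0.12) and RPS29 at 529 and 576 TPM (0.12). RPS19 alone among the core genes was under 0.1. RPS19 has a run of 13 pyrimidines at its start and RPS29 has none over 2 bases.

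Several core proteins are known for a second role. RPL5 and RPL11, which form the 5S particle with 5S rRNA and can bind MDM2, were at 565 and 725 TPM (0.36) and at 858 and 1118 TPM (0.38). RPS6, the substrate of the S6 kinases, was at 630.0 TPM with DMSO and 812 TPM with CCA-1.1 (0.37). RPS27A, which is made as a fusion with ubiquitin, was at 889 and 1191 TPM (0.42). RPSA, the laminin receptor protein, was at 725 and 897 TPM (0.31). These genes were chosen after their values were seen, and others with such a role lay lower, as RPS7, which can also bind MDM2, at 1026 and 1166 TPM (0.18).

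The medians of both subunits lay close together. The 43 genes of the large subunit had a median difference of 0.30, with 28 above 0.25, and sums of 44614 and 54490.4 TPM (22.1% higher). The 31 genes of the small subunit had a median of 0.31, with 21 above 0.25, and sums of 40282 and 50644 TPM (25.7% higher). The summed TPM of the large subunit with the stalk relative to the small subunit was 1.25 with DMSO and 1.21 with CCA-1.1. With 1 library per condition it cannot be said whether these ratios differ.

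Other genes of the ribosome were read beside the core genes. FAU and RACK1 encode ribosomal proteins under other names, FAU as a fusion with a ubiquitin-like protein. FAU was at 918 and 1009 TPM (0.14) and RACK1 at 1037 and 1166 TPM (0.17), so both were higher with CCA-1.1 and below the core median.

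Of 20 other RNAs known for a TOP start, among them those of elongation factors, all were above 0 and 8 were above 0.25, with a median of 0.21. The shares of all protein-coding genes were 53.8% and 11.8%, or 42.2% and 8.41% of those that averaged at least 100 TPM. EEF1A1, which brings aminoacyl-tRNA to the ribosome, was at 6049 and 6672 TPM (0.14). EEF2, which moves the ribosome along the mRNA, was at 1417 and 1698 TPM (0.26), EEF1B2 at 595 and 776 TPM (0.38) and TPT1 at 1279.8 and 1618 TPM (0.34). PABPC1, the poly(A)-binding protein, was at 677 and 700.3 TPM (0.05). The largest difference in this list was in GAS5, a non-coding host gene of small nucleolar RNAs, at 294 and 506 TPM (0.78).

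Core genes with and without a pyrimidine run had like values. The 51 core genes with a run had a median difference of 0.30 and a range of 0.07 to 0.66. The 11 without one had a median of 0.29 and a range of 0.12 to 0.54. Among genes that are not members, the 1415 with a run had a median of 0.03 and 12.6% above 0.25, and the 8415 without one had a median of 0.01 and 11.0% above 0.25. A run was present in 10 of the 14 other TOP genes with a promoter. Further motifs were searched on both strands from 250 bases before to 50 bases after the start. The ETS-type motif CCGGAAG was in 33.9% of core promoters and 14.3% of all promoters. The TATA-type motif TATAAA was in 8.06% of core promoters and 9.57% of all promoters. The reverse complement of CCGGAAG holds a stretch of pyrimidines and can overlap a run.

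Ribosome assembly factors had a lower median than the core genes. Of 59 listed, 49 (83.1%) were above 0, 36 (61.0%) above 0.1 and 14 (23.7%) above 0.25, with a median of 0.12, against 53.8%, 32% and 11.8% of all protein-coding genes. NPM1, a nucleolar chaperone, was at 938 and 1212 TPM (0.37), and NOP56, of the C/D small nucleolar particle, was at 23.7 and 34.4 TPM (0.52). FBL, the methyltransferase of the same particle, was at 120.2 and 130.1 TPM (0.11), and EIF6, which keeps the subunits apart until the large one is mature, was at 164 and 145 TPM (-0.17). RNA polymerase I and its factors had 11 of 14 genes (78.6%) above 0 and 2 (14.3%) above 0.25, with a median of 0.12, so that the second share was close to that of all protein-coding genes. In this list TAF1D was at 87.4 and 120.2 TPM (0.46) and POLR1A, the largest subunit, at 9.59 and 8.17 TPM (-0.21). Chaperones and importins of ribosomal proteins had 7 of 8 genes above 0, against 53.8% of all protein-coding genes, and none above 0.25, with a median of 0.11.

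The mitochondrial ribosome, which is built from a separate set of nuclear genes, had shares close to the background. Of its 77 genes, 44 (57.1%) were above 0 and 12 (15.6%) above 0.25, with a median of 0.05. Below -0.25 were 2 (2.60%), against 7.69% of all protein-coding genes. Its summed TPM was 6096 and 5910.1, or 3.04% lower with CCA-1.1. Of 10 regulators of ribosomal protein genes and their mRNAs, 5 were above 0 and 1 above 0.25, with a median of 0.01, which is at the shares of all protein-coding genes (53.8% and 11.8%). The 1 gene above 0.25 was MYC, at 21.1 and 31.6 TPM (0.57). LARP1 was at 79.9 and 71.1 TPM (-0.17) and MTOR at 20.2 and 18.9 TPM (-0.09).

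The paralogs of the core genes showed a mixed pattern. Of the 8, RPL3L and RPL10L were listed at 0.14 TPM or less in both libraries. The other 6 had sums of 331 and 345 TPM (4.22% higher), and 4 of them were above 0. Each was below its usual partner in both libraries.

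RPL36AL, the paralog nearest in level to its partner, was at 186 TPM with DMSO and 188 TPM with CCA-1.1 (0.01), while RPL36A was at 259 and 359 TPM. Its share of the pair was 41.9% and 34.4%. RPL26L1 was at 47.9 and 45.02 TPM (-0.09), 1.64% and 1.12% of the pair with RPL26. RPL7L1 was at 39.0 and 37.2 TPM (-0.07), 6.07% and 4.49% of the pair with RPL7. RPL26L1 and RPL7L1 were the only members averaging at least 10 TPM that were lower with CCA-1.1.

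The other paralogs were higher with CCA-1.1, like their partners. RPS27L was at 33.2 and 41.4 TPM (0.31), 0.339% and 0.312% of the pair with RPS27. RPL22L1 was at 19.85 and 26.8 TPM (0.41), 13.2% and 14.01% of the pair with RPL22. RPL39L was at 4.58 and 6.29 TPM (0.39), 0.192% and 0.207% of the pair with RPL39. In 4 of the 6 pairs the paralog held a lower share with CCA-1.1. The share of RPL22L1 turned when only curated mRNA transcripts were counted, to 3.53% and 2.89%, since its non-coding transcript NR_135259.2 held 15.1 and 21.9 TPM of its level.

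The starts of the paralogs vary as well, and those of the lowered, the flat and a higher one are printed beside each other. RPL26L1, RPL7L1 and RPS27L have no run of 8 pyrimidines there, although RPS27L was higher with CCA-1.1. RPL36AL has a run of 15, which begins 2 bases before the stretch shown, although its difference was 0.01.
RPL26L1, chr5:172958719-172958748, plus strand: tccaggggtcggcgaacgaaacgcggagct
RPL7L1, chr6:42879606-42879635, plus strand: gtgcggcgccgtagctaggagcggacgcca
RPL36AL, chr14:49620607-49620636, minus strand: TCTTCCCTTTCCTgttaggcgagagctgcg
RPS27L, chr15:63157458-63157487, minus strand: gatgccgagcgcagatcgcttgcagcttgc

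Pseudo-alignment can divide reads between genes only where their transcripts share sequence. Of the 77 core genes, 64 had no stretch of 31 bases (the default length in Kallisto) in the MANE Select transcript of another member, and only RPL39 had more than 5% of such stretches shared. The read-through genes have no MANE Select transcript here and were outside this search, as were pseudogenes. Sharing with them is therefore not counted. The coding sequences of RPL39 and RPL39L were identical at 94.8% of positions with 51 shared stretches, and those of RPL36A and RPL36AL at 89.9% with 33. RPL26L1 and RPL7L1 shared none with their partners, at 84.1% and 57.8% identity. The many processed pseudogenes of this family are a further place where reads can go. The 31 listed had sums of 137 and 153 TPM, 0.151% and 0.137% of the core sum.

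Read-through genes, whose RNA continues into the next gene, had low levels. RPL17-C18orf32 was at 60.7 and 62.0 TPM (0.03), RPL36A-HNRNPH2 at 28.6 and 37.9 TPM (0.39) and RPS10-NUDT3 at 5.26 and 4.44 TPM (-0.20). RPL17 itself was at 2351 and 3084 TPM (0.39). These transcripts share exons with RPL17, RPL36A and RPS10, so their values depend on how shared reads were divided.

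The shift was also present in single transcripts. Of 192 transcripts of the members that averaged at least 1 TPM, 170 (88.5%) were above 0, against 52.6% of the 29619 such transcripts of protein-coding genes. The transcript with the highest level was above 0 in all 77 core genes, with a median of 0.30, and held over 90% of the gene in both libraries in 66 of them. In RPL37 this was the non-coding NR_159993.1, at 329.4 and 428 TPM, while the mRNA NM_000997.5 was at 1.47 and 1.99 TPM. In RPS28 it was the predicted XM_047439201.1, at 1064 and 1178 TPM. Past 2-fold were 5 of the 192 member transcripts upward and 1 downward, 3.125% in all. The shares over all such transcripts were 3.01% upward and 2.93% downward. Both directions together thus came to more than the 3.125% of the members, which had no excess. The member counts were 9 and 2 with a pseudocount of 0.1 TPM, and 1 and 0 among transcripts that averaged at least 10 TPM.

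These 6 transcripts were minor forms. In RPL17, NM_001369562.1 was at 0.93 and 5.24 TPM (1.69), and in RPL6, NM_001320138.2 was at 0.65 and 2.61 TPM (1.13). In RPS24, NM_001142282.2 was at 1.35 and 4.16 TPM (1.13), and in RPL13A, the non-coding NR_073024.2 was at 13.4 and 28.7 TPM (1.05). In RPS9, NM_001321704.2 was at 6.67 and 2.11 TPM (-1.30) and the non-coding NR_135762.2 at 0.13 and 1.92 TPM (1.37).

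Shares moved among more abundant transcripts in RPS24 and RPS9, and at low levels in RPL7L1 and, as given above, RPL22L1. The transcripts of RPS24 and RPS9 given below were all higher with CCA-1.1. RPS24 encodes proteins that differ at the C-terminus by alternative splicing of small 3′ exons. Its leading transcript NM_033022.4 was at 705 and 1089 TPM (0.63), or 72.3% and 79.6% of the gene. The transcript NM_001026.5 was at 266 and 271 TPM (0.03), or 27.3% and 19.8%. The higher level of RPS24 was thus carried almost wholly by one of these forms. In RPS9 the coding transcript NM_001013.4 was at 280.3 and 326 TPM, 77.8% and 73.0% of the gene, and the non-coding NR_135763.2 was at 36.9 and 74.6 TPM, 10.3% and 16.7%. In RPL7L1, NM_198486.5 was at 21.3 and 16.5 TPM, 54.6% and 44.3% of the gene, and the non-coding NR_134563.3 at 1.6 and 3.85 TPM, 4.10% and 10.4%. The division of reads among the transcripts of 1 gene is an estimate, and its error is unknown here.

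GC content moved with the difference, and length and level did not. Over the 77 core genes, the difference had a Spearman correlation of -0.46 with the GC content of the MANE Select transcript, -0.02 with its length and -0.05 with the mean TPM, as a description over genes that share both libraries. The correlation with GC content over 7673 other protein-coding genes averaging at least 10 TPM was -0.22. In the bin up to 45% GC the median was 0.35 for 22 core genes and 0.05 for other genes, and from 50 to 55% GC it was 0.23 for 16 core genes and -0.02 for other genes. Above 60% GC it was 0.15 for 4 core genes, among them RPL8, and -0.03 for other genes. The core median was above that of other genes in each of 5 bins of GC content. The median of other genes in the same bin was then subtracted, an alternative added after seeing the data. It was at most 0.05, below the smallest core difference of 0.07, so all 77 core genes had to stay above 0. After the subtraction the core median was 0.30, with 51 above 0.25.

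The core median was also above that of other genes in each of 4 bins of transcript length. It was 0.31 for 9 genes of up to 500 bases and 0.29 for 17 genes over 2000 bases, against -0.02 and 0.01 for other genes. Other short transcripts had no such shift. Of 252 other genes with a transcript of up to 1000 bases and a mean of at least 100 TPM, 36.5% were above 0 and 3.97% above 0.25, with a median of -0.04.

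The libraries also differed in the rRNA that remained after mRNA enrichment. The rRNA genes held 12301 TPM with DMSO and 7504 TPM with CCA-1.1, or 1.23% and 0.75% of the library. Rescaling the TPM without these genes moves every gene of a library by the same small factor. All 77 core genes were above 0 after it, with a median of 0.30 and 48 above 0.25.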

How the data were processed

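RNA of 1 DMSO library and 1 CCA-1.1 library was enriched for mRNA and sequenced on an Illumina instrument. Reads were checked with FastQC version 0.11.9 and MultiQC version 1.1, according to the submitters' processing notes. The authors quantified transcripts with Kallisto against human transcripts (GRCh38.p14), and the deposited values are TPM. Whether bias correction was used is not given in the sources used here.

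The TPM of the transcripts of a gene was summed, using 169960 of 177816 transcripts that matched a symbol in a RefSeq table. Differences used a pseudocount of 1 TPM and a minimum mean of 1 TPM, and a gene was counted as past 2-fold above 1 or below -1. The thresholds of 0.1 and 0.25 were descriptive. The members, thresholds and gene lists were chosen with earlier results of these data known. Any member could be named. Values are given for the 5 highest, 5 lowest, 5 most raised and 5 most lowered members averaging at least 10 TPM, for paralogs, read-through genes and stalk genes, and for members with a transcript past 2-fold. Lowered members under this rule numbered 2. The genes known for a second role, GAS5, MYC and the other genes named from the lists were chosen after their values were seen.

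GC content, length and coding sequences came from MANE Select transcripts of GENCODE release 44, and of 7820 non-member genes averaging at least 10 TPM, 98.1% had them. Starts came from RefSeq promoters (GRCh38.p14). No test was made, since there was 1 library per condition. Alternatives changed the pseudocount, the minimum, the scaling, the transcripts counted and the members. Values of some genes are not reported here. The calculation was tested on simulated data with changes well past 2-fold. That test does not cover differences as small as those of the core genes. Python 3.11.15 was used with numpy 2.4.6, pandas 2.3.3, scipy 1.17.1, biopython 1.88 and matplotlib 3.10.9.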

Additional observations from a re-analysis of the deposited data

How the results depend on the processing

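The core comparison was repeated under 13 alternatives, of which centring within bins of GC content, centring within bins of length and rescaling without rRNA genes were chosen after seeing the data. All core genes compared were above 0 in each of them, 76 of 76 with a minimum mean of 100 TPM and 77 of 77 otherwise. For the core genes, leaving out the other members, a minimum mean of 10 TPM and no minimum keep the same genes and values. They could not change this, and a minimum mean of 100 TPM only removes genes. The pseudocounts and the rescalings moved the core genes too little, or only upward, to turn any. The smallest core difference was 0.07 in the main setting, 0.07 with median-ratio scaling and 0.06 without rRNA genes. The medians subtracted in the bins were at most 0.05, below the smallest core difference, so the centring could not turn any either. Only the choice of transcripts could have turned a core gene. The number above 0.25 ran from 48, with median-ratio scaling (a factor of 1.00279) or without rRNA genes, to 54, when TPM was rescaled over other protein-coding genes. The median over the members compared ran from 0.29 to 0.34. Over all results, 101 alternative values were computed, and 12 of them moved by more than 0.05 (log2), 10% or 1.5 times. The median log2 differences stayed above 0. The other values were counts, sums, shares and ratios, which have no sign to change. Without the 5 highest members, the summed TPM of all members was 68877 with DMSO and 83884 with CCA-1.1. Transcripts past 2-fold numbered 9 upward and 2 downward with a pseudocount of 0.1 TPM, and 1 upward and 0 downward with a minimum mean of 10 TPM. With curated mRNA transcripts only, the share of the paralog was 5.40% and 3.71% for RPL7L1 and 1.40% and 0.978% for RPL26L1, and that of RPL22L1 turned from higher to lower with CCA-1.1 (3.53% and 2.89%), so that 5 of 6 pairs had a lower share in the CCA-1.1 library. No paired analysis was possible because each condition had 1 library, which also meant that no library could be left out.

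TPM keeps no depth, so counting error and the limit set by a value of 0 are unknown, and low transcripts are the least certain. The spread between cultures is also unknown.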
